A study of Mus musculus with 19 samples.

Results

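The genes described here are 40 genes of mitosis, read in the dorsal root ganglia of mice with and without drug treatment and knee surgery. They were taken by symbol from the deposited table of counts and FPKM, which lists 36682 genes, and all 40 were found and passed the filter on low counts. Dorsal root ganglia hold the cell bodies of sensory neurons with their satellite glia, Schwann cell sheaths, blood vessels and resident immune cells. The 19 libraries came from pooled L3 to L5 ganglia of male mice, taken on the side of the operated knee in those with surgery, and all mice were homozygous for the MaFIA (macrophage Fas-induced apoptosis) transgene. As background, that transgene puts an inducible Fas death domain under the Csf1r promoter, so that the dimerizing drug AP20187 can kill cells in which the promoter is active, macrophages and other myeloid cells among them. All 4 groups carried the transgene: mice 8 weeks after destabilization of the medial meniscus (DMM), a surgical model of knee osteoarthritis, given AP20187 (n = 5) or vehicle (n = 5), and age-matched naive mice given AP20187 (n = 4) or vehicle (n = 5). Drug or vehicle was injected intraperitoneally daily for 5 days. The age of the mice is not given in the sources used here, and no group without the transgene was analysed here, so effects of drug and of transgene activation cannot be told apart. Mice are named by the numbers of their labels.

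Library totals ran from 60984830 to 74691396 counts. The tissue was checked on 8 sensory neuron markers, Prph, Avil, Isl1, Prdm12, Tubb3, Scn10a, Calca and P2rx3. All were detected in every group, and their summed level was 4742 to 7092 CPM, a count scaled to the library's size, in naive vehicle mice, 1224 to 4487 CPM in naive mice with AP20187, 3379 to 6832 CPM in DMM vehicle mice and 1281 to 3722 CPM in DMM mice with AP20187. Of 8 resident macrophage markers, none was called lower with AP20187 by edgeR or had an unadjusted p under 0.05 in that direction. Of all tested genes, 12.3% were called lower in DMM and 2.48% in naive mice. In DMM 1 marker was higher, near the 11.3% of all tested genes that were. In naive mice 2 were higher, where 8.50% of all tested genes were. Csf1r itself had a log2 fold change of -0.02 ± 0.46 (SE) in DMM and 0.45 ± 0.49 in naive mice. The counts of higher macrophage markers rested on single mice: in DMM the count was 0 without treated mouse 58 or 59 or vehicle mouse 32, 33 or 34, 2 without treated mouse 62, 3 without treated mouse 61, 5 without vehicle mouse 64, 0 against vehicle mice 63 and 64 alone and 6 against mice 32 to 34 alone. In naive mice it was 0 without AP20187 mouse 3, 1 without AP20187 mouse 1 or vehicle mouse 1, 2, 4 or 5, and 6 without vehicle mouse 3. The DMM vehicle mice have label numbers in separate ranges, 32 to 34 and 63 to 64, while the DMM mice with AP20187 are numbered 58 to 62. The labels do not say what the number ranges stand for, and since the members differed between the ranges, the DMM results of each member are given with each range below.

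Mitosis separates the copied chromosomes into daughter cells. Cyclin-dependent kinase 1 with cyclins A and B starts it, Polo-like and Aurora kinases build the spindle and the chromosome attachments, and kinetochores link each centromere to the microtubules. The spindle checkpoint holds the anaphase-promoting complex until every chromosome is attached, after which cyclin B is degraded and the cytokinesis proteins divide the cell. Mature sensory neurons have left the cell cycle. Transcription of many of these genes peaks late in the cell cycle through paired promoter elements: CCAAT boxes, bound by NF-Y, and the cell cycle genes homology region (CHR), most often spelled TTTGAA or TTTAAA, which recruits the MuvB complexes together with B-MYB and FOXM1.

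The promoters below show where the letters of those elements lie in 5 members that hold both and in Mad2l1, which holds neither. RefSeq promoters on GRCm38.p6 were matched by symbol for 32 of the 40 members, with 34 start sites, since Prc1 and Ect2 had several. Aurkb, Ccna2, Cdc25c, Foxm1, Incenp, Kif20a, Spc24 and Tpx2 were not matched. CCAAT and the CHR spellings TTTGAA and TTTAAA were searched on both strands in 300 bases, 250 before to 50 after the start, and a CCAAT and a CHR match can share at most 1 base. A CCAAT was in 79.4% of member promoters and 37.4% of all 32851 promoters in the table. TTTGAA or TTTAAA was in 88.2% of member promoters against 27.6% of all, and both elements together were in 76.5% against 10.7%. The lines give 120 bases before to 30 bases after the start, 5′ to 3′ on the gene's strand, with matches of both elements in capitals. Read from the other strand, CCAAT appears as ATTGG and the first CHR form as TTCAAA. They lie at Ccnb1 chr13:100786457-100786606 (minus strand), Ccnb2 chr9:70421525-70421674 (minus strand), Plk1 chr7:122159315-122159464 (plus strand), Top2a chr11:99024160-99024309 (minus strand), Cdc20 chr4:118437314-118437463 (minus strand) and Mad2l1 chr6:66535101-66535250 (plus strand).
Ccnb1: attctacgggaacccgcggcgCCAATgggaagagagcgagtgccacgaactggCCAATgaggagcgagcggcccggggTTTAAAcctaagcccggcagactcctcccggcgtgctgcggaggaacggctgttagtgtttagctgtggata
Ccnb2: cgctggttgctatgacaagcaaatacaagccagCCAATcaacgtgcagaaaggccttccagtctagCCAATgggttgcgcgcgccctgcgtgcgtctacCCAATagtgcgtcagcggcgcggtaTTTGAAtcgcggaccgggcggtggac
Plk1: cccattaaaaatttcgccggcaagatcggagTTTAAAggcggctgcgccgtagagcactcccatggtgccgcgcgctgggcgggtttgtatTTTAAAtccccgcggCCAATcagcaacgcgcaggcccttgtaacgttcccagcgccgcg
Top2a: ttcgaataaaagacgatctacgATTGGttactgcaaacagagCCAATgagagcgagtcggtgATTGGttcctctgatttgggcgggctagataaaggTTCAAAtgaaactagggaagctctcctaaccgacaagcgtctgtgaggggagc
Cdc20: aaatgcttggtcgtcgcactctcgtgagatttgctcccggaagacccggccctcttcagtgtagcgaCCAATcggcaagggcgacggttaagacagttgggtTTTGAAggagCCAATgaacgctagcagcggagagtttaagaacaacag
Mad2l1: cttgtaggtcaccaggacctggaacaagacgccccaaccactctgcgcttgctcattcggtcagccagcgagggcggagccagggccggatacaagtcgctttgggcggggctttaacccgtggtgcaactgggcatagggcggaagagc
Within these windows Ccnb2 and Top2a each held 3 CCAAT boxes and 1 CHR spelling, with the CHR nearest the start. The cyclin B1 promoter held 2 CCAAT boxes and 1 CHR spelling, and Cdc20 the same numbers in another order. Plk1 had 2 CHR spellings and 1 CCAAT. Mad2l1 had none of these spellings in the window or in the full 300 bases, which says only that these letters are not there. Nuf2 and Nusap1 also had neither element, with log2 fold changes of 2.36 and 2.09 in DMM and 2.56 and 2.07 in naive mice. Bub1 had a CCAAT and no CHR spelling (2.79 and 2.25). A CHR spelling without a CCAAT was found in 4 members, Kif2c (2.54 and 2.52), Ndc80 (2.40 and 2.13), Birc5 (1.87 and 1.69) and Anln (1.39 and 1.19), which lie on both sides of the members' medians of 2.21 and 1.96. The limits of these values, by the mice used, are given with each gene's role group. From the start site, the Birc5 match began at -220 and those of Kif2c at -234 and -103. All these matches are letters only, and whether they act as elements was not tested.

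**Figure D1:**
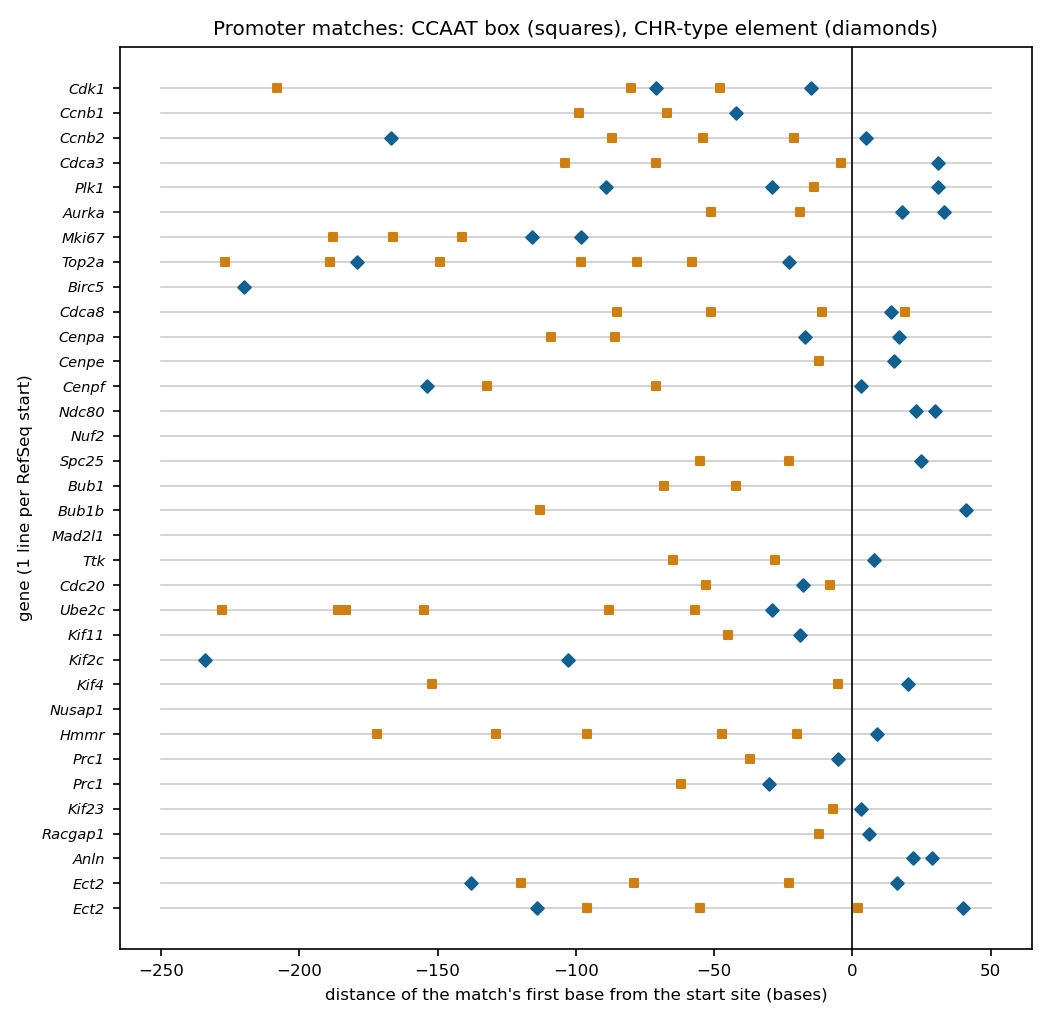
Positions of CCAAT boxes (squares) and of TTTGAA or TTTAAA (diamonds) in the 34 RefSeq promoters of 32 members; the horizontal axis is the distance in bases of the first base of a match from the start site. Of the 32 members, 25 had a CCAAT, 28 had a CHR spelling and 24 had both.

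Every member was read in every group, and none had 0 counts in a library. On the FPKM scale, which divides by gene length and so allows genes to be compared, the mean level in naive vehicle ganglia ran from 0.213 for Cdc25c, the phosphatase that activates CDK1, to 9.91 for Mki67, the coat protein of mitotic chromosomes. The next lowest were Ttk at 0.443 and Ndc80 at 0.513. Below Mki67 at the upper end came Ccna2 at 4.89, Top2a at 4.11, Incenp at 3.60 and Ccnb2 at 3.51. This order is a description, and neighbours in it were not tested against each other.

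In DMM mice AP20187 went with higher levels of the whole set. All 40 members were higher than with vehicle at an adjusted p under 0.05, against 11.3% of the 22778 tested genes that were higher and 12.3% that were lower. The median log2 fold change was 2.21, from 1.32 for Mad2l1 to 3.04 for Ccnb1, while the median over all tested genes was -0.0963. In all 40, the lowest of the 5 treated mice stood above the highest of the 5 vehicle mice, an arrangement that 8.71% of tested genes showed. In these bulk libraries, more dividing cells and more of these transcripts per cell cannot be told apart.

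The size of the difference depended on which DMM vehicle mice were used. Against mice 63 and 64 alone, 4 of 40 members were higher, beside 2.76% of all genes: Hmmr (log2 fold change 2.24), Bub1 (2.20), Cdc25c (2.03) and Tpx2 (1.81). The median was then 1.51, with all 40 estimates positive, from 0.895 to 2.24. Against mice 32 to 34 alone all 40 were higher and the median was 3.15, with 17.5% of all genes higher. Leaving out 1 DMM mouse at a time kept 39 or 40 members called, and the member lost was Ube2c, without treated mouse 58 or 62 or vehicle mouse 33 or 34 (adjusted p from 0.0546 to 0.0651). Without vehicle mouse 64 the fold of 13 members grew by more than 1.5 times, and none moved as far without any other DMM mouse.

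In naive mice 35 of 40 members were higher with AP20187, where 8.50% of all tested genes were higher and 2.48% lower. The median log2 fold change was 1.96, from 0.76 for Mad2l1 to 2.85 for Ccnb1, and the median of all tested genes was -0.0662. The treated and vehicle mice did not overlap in 29 of 40 members, compared with 9.39% of tested genes. The 5 that missed the threshold had positive estimates: Aurkb (log2 fold change 1.58 ± 0.60 (SE), adjusted p = 0.0946), Cenpf (1.43 ± 0.53, 0.0862), Mad2l1 (0.76 ± 0.25, 0.0598), Cenpa (1.81 ± 0.60, 0.057) and Bub1b (1.14 ± 0.37, 0.0562). This count rested on single mice: it was 14 without AP20187 mouse 1, 15 without AP20187 mouse 3, 16 without vehicle mouse 2, 19 without vehicle mouse 1 and 23 without vehicle mouse 5. Without any of the other 4 mice it was between 30 and 40. No member's fold moved by more than 1.5 times, and 14 members were called whichever of the 9 naive mice was left out. Calls also fell in other lists: of 18 DNA replication genes, 11 were higher with all naive mice and 1 without AP20187 mouse 1. All 8 granulocyte precursor markers were higher with all naive mice, and 7 without AP20187 mouse 1. Shares of all genes called in these fits are not given here, so whether the fall is particular to the members was not tested.

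**Figure D2:**
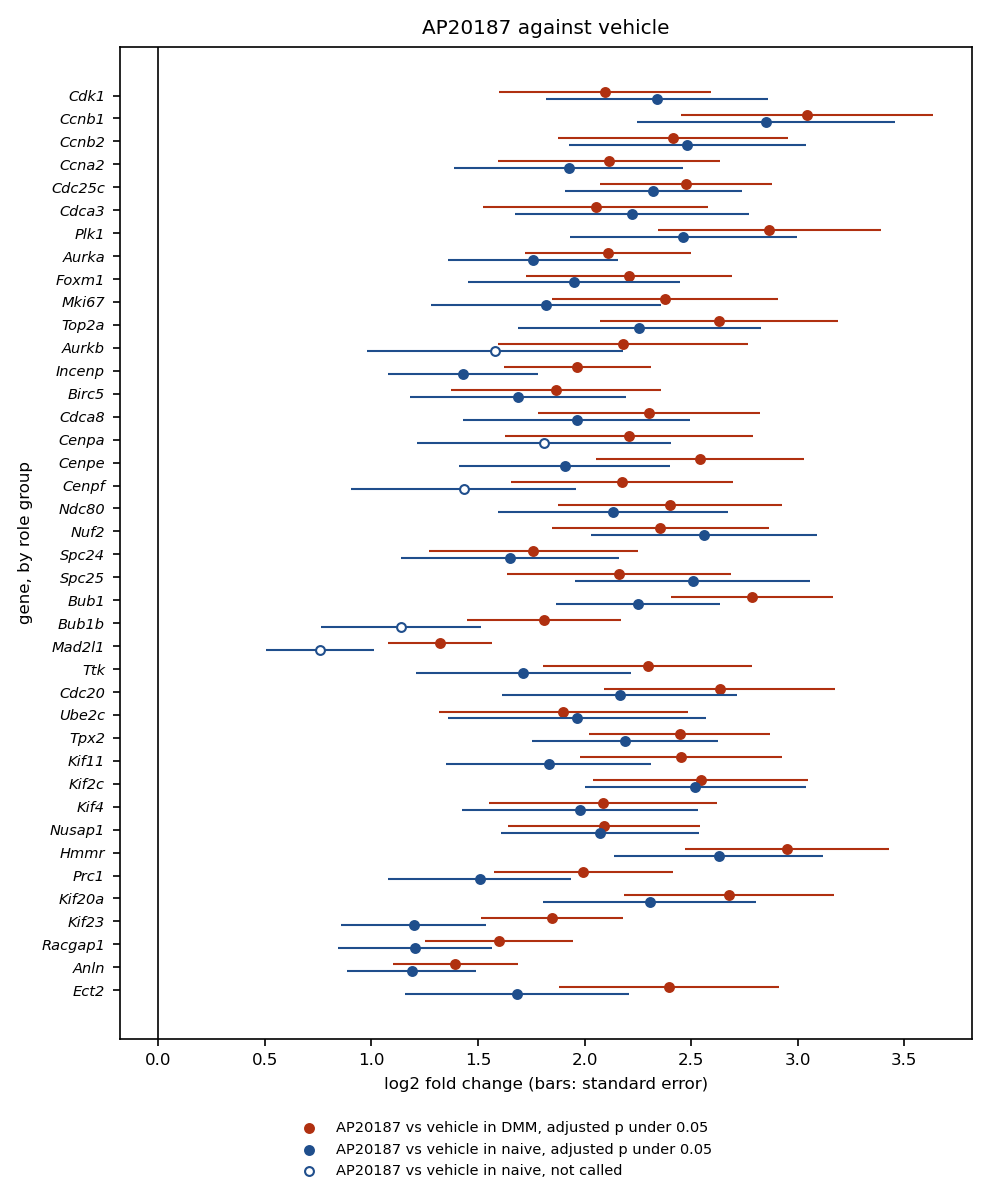
Log2 fold change of each member for AP20187 against vehicle in DMM mice (red) and in naive mice (blue), with standard errors as bars; filled points passed an adjusted p of 0.05. All 80 estimates lie right of 0, and the 5 open points are the naive contrasts of Aurkb, Cenpa, Cenpf, Bub1b and Mad2l1.

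Values per mouse are given below in CPM in the order of the label numbers: DMM with AP20187 mice 58 to 62, DMM vehicle mice 32, 33, 34, 63 and 64, naive AP20187 mice 1, 3, 4 and 5, and naive vehicle mice 1 to 5. Gene positions are those of the deposited table, on GRCm39 per the submitters' processing notes.

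All 9 genes of mitotic entry and CDK control rose in both drug comparisons, with medians of 2.21 in DMM and 2.32 in naive mice. Ccnb1 (ENSMUSG00000041431, chromosome 13, 100915158 to 100923078, minus strand) encodes cyclin B1, the partner of CDK1 whose destruction ends mitosis. In DMM it was at 86.8, 54.1, 51.9, 52.2 and 117 CPM with AP20187 and 1.96, 2.79, 6.78, 13.4 and 18.9 CPM with vehicle. Naive ganglia had it at 69.0, 56.4, 19.6 and 19.7 CPM with AP20187 and 2.88, 4.12, 6.998, 11.2 and 3.29 CPM with vehicle. It was the member with the highest fold in both, 8.25-fold in DMM (log2 fold change 3.04 ± 0.59 (SE), adjusted p = 0.00224) and 7.22-fold in naive mice (log2 fold change 2.85 ± 0.61 (SE), adjusted p = 0.00678), and no treated mouse overlapped with its controls. Ccnb2 (ENSMUSG00000032218, chromosome 9, 70314974 to 70328829, minus strand), cyclin B2, was in DMM mice at 53.3, 40, 38.1, 40.3 and 82.5 CPM with AP20187 and 2.51, 2.86, 7.90, 11.3 and 23.0 CPM with vehicle. Its naive values were 48.8, 43.0, 16.4 and 14.4 CPM with AP20187 and 4.64, 2.97, 6.34, 9.39 and 4.08 CPM with vehicle. Vehicle mouse 64 was the highest control and still under every treated DMM mouse, with folds of 5.34 in DMM and 5.59 in naive mice (adjusted p = 0.00505 and 0.0092). Against DMM vehicle mice 63 and 64 alone, the log2 fold changes were 2.17 for Ccnb1 (adjusted p = 0.0574) and 1.56 for Ccnb2 (0.113), and against mice 32 to 34 alone 4.23 and 3.52 (adjusted p up to 0.000412). The DMM fold without vehicle mouse 64 was 8.27 for Ccnb2. With 1 naive mouse left out, the naive call held for Ccnb1 and Ccnb2.

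Ccna2 (ENSMUSG00000027715, chromosome 3, 36619014 to 36626299, minus strand), cyclin A2, acts from DNA synthesis to early mitosis. DMM mice had it at 172, 106, 93.1, 102 and 214 CPM with AP20187 and 6.40, 13.4, 29.1, 38.4 and 71.1 CPM with vehicle. In naive mice Ccna2 was at 124, 98.5, 46.5 and 41.4 CPM with AP20187 and 15.9, 15.4, 19.8, 39.3 and 11.6 CPM with vehicle. Naive AP20187 mouse 5 and vehicle mouse 4 came within a few CPM of each other without overlap, and the folds were 4.34 (adjusted p = 0.00877) and 3.80 (0.0284). Plk1 (ENSMUSG00000030867, chromosome 7, 121758662 to 121769096, plus strand), the Polo-like kinase of centrosome maturation and spindle assembly, was in DMM at 65.3, 35.9, 46.2, 36.1 and 87.3 CPM with AP20187 and 2.44, 3.43, 6.40, 6.95 and 17.9 CPM with vehicle. Naive mice showed Plk1 at 43.0, 34.8, 17.3 and 14.4 CPM with AP20187 and 3.18, 3.22, 5.14, 10.5 and 2.81 CPM with vehicle. Treated mice 58 and 62 were the highest of the 19, and the groups did not overlap in either comparison, with 7.30-fold and 5.51-fold differences (adjusted p = 0.00146 and 0.00758). The other entry genes, Cdk1, Cdc25c, Cdca3, Aurka and Foxm1, the forkhead factor of late cell cycle transcription, had log2 fold changes of 2.05 to 2.48 in DMM and 1.76 to 2.34 in naive mice. With only vehicle mice 63 and 64 as DMM controls, the log2 fold changes were 1.32 for Ccna2 (adjusted p = 0.166) and 2.11 for Plk1 (0.061), and against mice 32 to 34 alone 3.08 and 3.73 (adjusted p up to 0.00102). Leaving out vehicle mouse 64 raised the DMM fold to 11.3 for Plk1. When single naive mice were left out, the naive call was lost for Ccna2 without AP20187 mouse 1 or 3 or vehicle mouse 1, 2 or 5 (adjusted p from 0.0644 to 0.104), and the call held for Plk1. Relative to vehicle mice 63 and 64 alone, the log2 fold changes were 1.25 for Cdk1 (adjusted p = 0.16), 2.03 for Cdc25c (0.0343), 1.19 for Cdca3 (0.209), 1.57 for Aurka (0.0723) and 1.52 for Foxm1 (0.0936), and against mice 32 to 34 alone 3.21, 2.89, 3.18, 2.63 and 2.95 (adjusted p up to 0.00101). The DMM fold without vehicle mouse 64 was 6.45 for Cdk1 and 6.46 for Cdca3. Over the fits without 1 naive mouse, the naive call was lost for Cdca3 without AP20187 mouse 1 or 3 (adjusted p from 0.051 to 0.0665) and Foxm1 without AP20187 mouse 1 or 3 or vehicle mouse 1 or 2 (adjusted p from 0.0508 to 0.0693), and the call held for Cdk1, Cdc25c and Aurka.

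Both genes of chromosome structure rose in both comparisons. Mki67 (ENSMUSG00000031004, chromosome 7, 135291513 to 135318090, minus strand) encodes the Ki-67 protein used to mark cycling cells. It was at 838, 604, 552, 414 and 1037 CPM with AP20187 and 24.1, 61.5, 148, 176 and 254 CPM with vehicle in DMM. In the naive arm it stood at 541, 466.1, 249 and 183 CPM with AP20187 and 76.7, 81.1, 107, 202 and 42.5 CPM with vehicle. The DMM groups did not overlap, whereas naive AP20187 mouse 5 was below vehicle mouse 4. The differences were 5.19-fold (log2 fold change 2.38 ± 0.53 (SE), adjusted p = 0.00505) and 3.53-fold (log2 fold change 1.82 ± 0.54 (SE), adjusted p = 0.0372). Top2a (ENSMUSG00000020914, chromosome 11, 98883769 to 98915015, minus strand), the topoisomerase that untangles sister chromatids, was at 426, 285, 274, 242 and 580.3 CPM with AP20187 and 10.3, 22.1, 59.3, 74.0 and 126 CPM with vehicle in DMM mice. Naive mice had 288, 229.9, 114 and 93.1 CPM with AP20187 and 27.5, 26.6, 42.6, 74.9 and 17.9 CPM with vehicle. No treated mouse overlapped with its controls, and the folds were 6.20 and 4.78 (adjusted p = 0.00385 and 0.0178). Taking vehicle mice 63 and 64 alone as DMM controls, the log2 fold changes were 1.69 for Mki67 (adjusted p = 0.0934) and 1.85 for Top2a (0.074), and against mice 32 to 34 alone 3.15 and 3.56 (adjusted p up to 0.00165). Leaving out 1 naive mouse at a time, the naive call was lost for Mki67 without AP20187 mouse 1 or 3 or vehicle mouse 1, 2, 3 or 5 (adjusted p from 0.058 to 0.121) and Top2a without AP20187 mouse 1 or 3 or vehicle mouse 1 or 2 (adjusted p from 0.0506 to 0.0673).

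All 4 genes of the chromosomal passenger complex, which corrects faulty attachments and later marks the division plane, were higher in DMM, and 3 of 4 in naive mice. Incenp (ENSMUSG00000024660, chromosome 19, 9849660 to 9876915, minus strand), its scaffold, was in DMM at 85.9, 58.2, 63.9, 53.4 and 114 CPM with AP20187 and 10, 13.1, 17.0, 20.7 and 35.3 CPM with vehicle. Naive values were 61.1, 58.2, 29.9 and 23.0 CPM with AP20187 and 15.7, 15.1, 13.9, 23.1 and 12.0 CPM with vehicle. In naive mice AP20187 mouse 5 fell just under vehicle mouse 4, and the folds were 3.91 and 2.69 (adjusted p = 0.0011 and 0.0155). Birc5 (ENSMUSG00000017716, chromosome 11, 117740077 to 117746569, plus strand), survivin, was at 60.9, 40.3, 44.3, 32.0 and 70.0 CPM with AP20187 and 3.47, 5.85, 12.3, 17.2 and 29.1 CPM with vehicle in DMM. With naive mice the levels were 44.6, 37.0, 14.9 and 14.3 CPM with AP20187 and 6.36, 6.22, 8.80, 16.2 and 5.40 CPM with vehicle. The DMM groups did not overlap and the naive groups overlapped, with folds of 3.65 and 3.22 (adjusted p = 0.0126 and 0.0398). Aurkb, the kinase of the complex, had a 4.54-fold difference in DMM (adjusted p = 0.0141) and a 2.99-fold difference in naive mice that missed the threshold (0.0946), while Cdca8 (borealin) was called in both. Against DMM vehicle mice 63 and 64 alone, the log2 fold changes were 1.42 for Incenp (adjusted p = 0.061), 1.10 for Birc5 (0.248), 1.33 for Aurkb (0.214) and 1.48 for Cdca8 (0.121), and against mice 32 to 34 alone 2.49, 2.78, 3.26 and 3.31 (adjusted p up to 0.00179). The DMM fold without vehicle mouse 64 was 6.86 for Aurkb and 7.81 for Cdca8. With 1 naive mouse left out, the naive call was lost for Incenp without AP20187 mouse 1 or 3 (adjusted p from 0.059 to 0.0661), Birc5 without AP20187 mouse 1 or 3 or vehicle mouse 1, 2, 3 or 5 (adjusted p from 0.0628 to 0.144) and Cdca8 without AP20187 mouse 1 or 3 or vehicle mouse 1, 2 or 5 (adjusted p from 0.0535 to 0.0997), and the naive difference passed the threshold for Aurkb without AP20187 mouse 5 (adjusted p = 0.0455).

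At the centromere and kinetochore, all 7 members were higher in DMM and 5 of 7 in naive mice. Cenpe (ENSMUSG00000045328, chromosome 3, 134918298 to 134979372, plus strand), a kinetochore motor that moves chromosomes to the spindle equator, was at 93.4, 63.1, 55.2, 52.7 and 125 CPM with AP20187 and 4.50, 6.803, 14.2, 16.4 and 24.9 CPM with vehicle in DMM. Naive mice had Cenpe at 60.4, 49.1, 26.0 and 17.8 CPM with AP20187 and 5.72, 9.11, 10.4, 20.8 and 5.01 CPM with vehicle. Here too naive AP20187 mouse 5 lay under vehicle mouse 4, with folds of 5.83 and 3.75 (adjusted p = 0.00197 and 0.0201). Spc25 (ENSMUSG00000005233, chromosome 2, 69024239 to 69036523, minus strand), of the NDC80 complex that grips microtubules, was in DMM at 35.7, 22.8, 20.5, 18 and 30.7 CPM with AP20187 and 1.83, 1.63, 4.13, 6.92 and 14.0 CPM with vehicle. Its naive levels were 28.9, 18.7, 7.98 and 9.23 CPM with AP20187 and 2.50, 1.37, 3.63, 4.63 and 2.12 CPM with vehicle. Spc25 groups did not overlap in either arm, and the difference was 4.47-fold in DMM and 5.69-fold in naive mice (adjusted p = 0.00828 and 0.00831). Cenpa (ENSMUSG00000029177, chromosome 5, 30824121 to 30832174, plus strand), the histone H3 variant of centromeres, was at 64.0, 39.9, 41.8, 27.8 and 66.4 CPM with AP20187 and 2.04, 3.19, 8.58, 11.9 and 26.2 CPM with vehicle in DMM. The naive arm had 32.7, 29.1, 11.9 and 10.7 CPM with AP20187 and 5.17, 3.93, 9.50, 9.36 and 2.16 CPM with vehicle. Naive Cenpa did not overlap between groups, but its 3.503-fold difference missed the threshold (adjusted p = 0.057), while the 4.62-fold difference in DMM passed (0.0124). Cenpf, Ndc80, Nuf2 and Spc24 had log2 fold changes of 1.76 to 2.40 in DMM and of 1.43 to 2.56 in naive mice, where Cenpf was not called. With only vehicle mice 63 and 64 as DMM controls, the log2 fold changes were 1.92 for Cenpe (adjusted p = 0.0699), 1.29 for Spc25 (0.182) and 1.33 for Cenpa (0.221), and against mice 32 to 34 alone 3.19, 3.33 and 3.38 (adjusted p up to 0.000982). Leaving out vehicle mouse 64 raised the DMM fold to 7.46 for Cenpa and 7.03 for Spc25. When single naive mice were left out, the naive call was lost for Cenpe without AP20187 mouse 1 or 3 or vehicle mouse 1 or 2 (adjusted p from 0.0523 to 0.0803), and the naive difference passed the threshold for Cenpa without AP20187 mouse 5 (adjusted p = 0.0343), and the call held for Spc25. Relative to vehicle mice 63 and 64 alone, the log2 fold changes were 1.5 for Cenpf (adjusted p = 0.146), 1.59 for Ndc80 (0.0946), 1.56 for Nuf2 (0.106) and 0.94 for Spc24 (0.355), and against mice 32 to 34 alone 2.93, 3.40, 3.33 and 2.76 (adjusted p up to 0.00221). The DMM fold without vehicle mouse 64 was 8.05 for Ndc80. Over the fits without 1 naive mouse, the naive call was lost for Ndc80 without AP20187 mouse 1 or vehicle mouse 2 (adjusted p from 0.0521 to 0.0661) and Spc24 without AP20187 mouse 1 or 3 or vehicle mouse 1, 2, 3 or 5 (adjusted p from 0.0547 to 0.194), and the naive difference passed the threshold for Cenpf without AP20187 mouse 5 or vehicle mouse 4 (adjusted p from 0.0244 to 0.0455), and the call held for Nuf2.

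The 4 spindle checkpoint genes held both the firmest and the smallest differences. Bub1 (ENSMUSG00000027379, chromosome 2, 127643036 to 127673785, minus strand), the kinase that recruits checkpoint proteins to kinetochores, was at 61.9, 44.5, 38.4, 33.0 and 70.1 CPM with AP20187 and 3.47, 3.73, 6.90, 9.46 and 12.3 CPM with vehicle in DMM. Naive mice had Bub1 at 39.8, 30.3, 17.6 and 13.5 CPM with AP20187 and 4.83, 3.36, 5.72, 7.44 and 5.28 CPM with vehicle. The groups did not overlap in DMM or in naive mice, and Bub1 had the smallest adjusted p of the 40 in both, 0.00016 for 6.90-fold and 0.00186 for 4.76-fold. Bub1b (ENSMUSG00000040084, chromosome 2, 118428692 to 118472072, plus strand), BUBR1 of the mitotic checkpoint complex, was at 66.9, 42.6, 48.1, 40.4 and 96.1 CPM with AP20187 and 9.42, 12.4, 19.1, 15.6 and 27.4 CPM with vehicle in DMM. In naive ganglia Bub1b was at 46.7, 38.9, 25.8 and 15.1 CPM with AP20187 and 9.34, 15.6, 17.98, 21.1 and 7.76 CPM with vehicle. Naive AP20187 mouse 5 lay inside the vehicle range, and the DMM difference of 3.51-fold was the one called (adjusted p = 0.0027, against 0.0562 in naive mice). Taking vehicle mice 63 and 64 alone as DMM controls, the log2 fold changes were 2.20 for Bub1 (adjusted p = 0.0129) and 1.45 for Bub1b (0.0995), and against mice 32 to 34 alone 3.40 and 2.11 (adjusted p up to 0.00209). Leaving out 1 naive mouse at a time, the naive difference passed the threshold for Bub1b without AP20187 mouse 5 or vehicle mouse 4 (adjusted p from 0.0158 to 0.0381), and the call held for Bub1.

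Mad2l1 (ENSMUSG00000029910, chromosome 6, 66512374 to 66524204, plus strand), MAD2, the inhibitor of CDC20, was at 61.9, 49.6, 41.4, 37.3 and 66.2 CPM with AP20187 and 16.6, 14.8, 16.9, 24.6 and 29.9 CPM with vehicle in DMM. Naive mice had 42.0, 32.9, 19.7 and 22.2 CPM with AP20187 and 16.2, 14.9, 23.0, 17.6 and 14.5 CPM with vehicle. Its vehicle mice ran from 14.8 to 29.9 CPM in DMM, and its fold was the smallest of the 40, 2.50 in DMM (log2 fold change 1.32 ± 0.24 (SE), adjusted p = 0.00155) and 1.69 in naive mice (log2 fold change 0.76 ± 0.25 (SE), adjusted p = 0.0598). Naive AP20187 mice 4 and 5 were within the vehicle range. Ttk, the MPS1 kinase at the head of the checkpoint, was called in both, at 4.91-fold and 3.28-fold. Against DMM vehicle mice 63 and 64 alone, the log2 fold changes were 0.93 for Mad2l1 (adjusted p = 0.09) and 1.63 for Ttk (0.0903), and against mice 32 to 34 alone 1.67 and 3.02 (adjusted p up to 0.00125). With 1 naive mouse left out, the naive call was lost for Ttk without AP20187 mouse 1 or 3 or vehicle mouse 1, 2 or 5 (adjusted p from 0.0729 to 0.145), and the naive difference passed the threshold for Mad2l1 without AP20187 mouse 4 or 5 or vehicle mouse 3 (adjusted p from 0.0297 to 0.0415).

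The partners of the anaphase-promoting complex, its activator Cdc20 and its ubiquitin-conjugating enzyme Ube2c, rose in both comparisons. Cdc20 (ENSMUSG00000006398, chromosome 4, 118290098 to 118294549, minus strand) was at 57.9, 31.1, 38.1, 32.2 and 79.8 CPM with AP20187 and 1.60, 3.36, 5.88, 8.01 and 19.7 CPM with vehicle in DMM. Naive levels of Cdc20 were 37.2, 30.9, 15.9 and 12.0 CPM with AP20187 and 5.49, 3.00, 6.25, 8.63 and 3.39 CPM with vehicle. The groups did not overlap in either arm, with folds of 6.21 and 4.48 (adjusted p = 0.00318 and 0.0183). Ube2c (ENSMUSG00000001403, chromosome 2, 164611818 to 164620742, plus strand) was at 60.8, 41.4, 40.6, 42.7 and 77.1 CPM with AP20187 and 1.91, 4.58, 11.1, 16.8 and 36.0 CPM with vehicle in DMM. For naive mice the values were 57.5, 51.7, 20.1 and 15.1 CPM with AP20187 and 5.76, 7.48, 10.04, 17.2 and 5.73 CPM with vehicle. Vehicle mouse 64 came close to the lowest treated DMM mouse, naive AP20187 mouse 5 fell under vehicle mouse 4, and Ube2c had the largest adjusted p of the 40 in DMM (3.73-fold, adjusted p = 0.0266; naive 3.90-fold, 0.0441). With only vehicle mice 63 and 64 as DMM controls, the log2 fold changes were 1.78 for Cdc20 (adjusted p = 0.078) and 0.99 for Ube2c (0.341), and against mice 32 to 34 alone 3.72 and 3.16 (adjusted p up to 0.00137). Leaving out vehicle mouse 64 raised the DMM fold to 10.1 for Cdc20 and 6.11 for Ube2c. When single naive mice were left out, the naive call was lost for Cdc20 without AP20187 mouse 1 or 3 or vehicle mouse 2 (adjusted p from 0.0532 to 0.0692) and Ube2c without AP20187 mouse 1 or 3 or vehicle mouse 1, 2, 3 or 5 (adjusted p from 0.0669 to 0.141).

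All 6 genes of spindle motors and assembly were higher in both comparisons. Tpx2 (ENSMUSG00000027469, chromosome 2, 152689884 to 152737241, plus strand), which activates Aurora A on the spindle, was at 116, 78.8, 73.6, 65.9 and 148 CPM with AP20187 and 6.54, 9.80, 17.3, 17.6 and 37.2 CPM with vehicle in DMM. Naive mice had Tpx2 at 92.9, 72.0, 38.3 and 36.8 CPM with AP20187 and 9.25, 8.71, 15.1, 21.9 and 10.8 CPM with vehicle. All treated mice lay above their controls, at 5.45-fold in DMM and 4.56-fold in naive mice (adjusted p = 0.00107 and 0.00434). Nusap1 (ENSMUSG00000027306, chromosome 2, 119448779 to 119480641, plus strand), which bundles spindle microtubules, was in DMM at 112, 85.4, 77.9, 62.3 and 153 CPM with AP20187 and 8.22, 10.2, 21.2, 28.1 and 47.3 CPM with vehicle. The naive mice had 104, 72.5, 35.0 and 30.8 CPM with AP20187 and 13.8, 11.2, 15.3, 23.0 and 8.67 CPM with vehicle. Its groups did not overlap, and the differences in DMM and naive mice were 4.27-fold and 4.20-fold (adjusted p = 0.00411 and 0.0092). Kif11 (ENSMUSG00000012443, chromosome 19, 37364851 to 37410307, plus strand), the motor that pushes the spindle poles apart, was at 157, 113, 99.8, 90.7 and 207 CPM with AP20187 and 5.69, 13.2, 26.4, 28.1 and 48.7 CPM with vehicle in DMM. Its naive values were 97.1, 85.6, 41.4 and 32.2 CPM with AP20187 and 13.2, 14.5, 18.8, 32.0 and 11.5 CPM with vehicle. Naive AP20187 mouse 5 and vehicle mouse 4 were nearly level, and the folds were 5.47 and 3.56 (adjusted p = 0.00212 and 0.0214). Hmmr had log2 fold changes of 2.95 ± 0.48 (SE) in DMM and 2.63 ± 0.49 in naive mice, next to Ccnb1 the highest of the 40 in each, and Kif2c and Kif4 were called in both. Relative to vehicle mice 63 and 64 alone, the log2 fold changes were 1.81 for Tpx2 (adjusted p = 0.0458), 1.38 for Nusap1 (0.118), 1.80 for Kif11 (0.0527) and 2.24 for Hmmr (0.0212), and against mice 32 to 34 alone 3.10, 2.89, 3.14 and 3.76 (adjusted p up to 0.00065). Over the fits without 1 naive mouse, the naive call was lost for Kif11 without AP20187 mouse 1 or 3 or vehicle mouse 1 or 2 (adjusted p from 0.0579 to 0.0819), and the call held for Tpx2, Nusap1 and Hmmr. Taking vehicle mice 63 and 64 alone as DMM controls, the log2 fold changes were 1.84 for Kif2c (adjusted p = 0.0774) and 1.35 for Kif4 (0.237), and against mice 32 to 34 alone 3.31 and 2.92 (adjusted p up to 0.00203). Leaving out vehicle mouse 64 raised the DMM fold to 9.03 for Kif2c and 6.38 for Kif4. Leaving out 1 naive mouse at a time, the naive call was lost for Kif4 without AP20187 mouse 1 or 3 or vehicle mouse 1, 2 or 5 (adjusted p from 0.0643 to 0.104), and the call held for Kif2c.

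The 6 cytokinesis genes were higher in both comparisons, with role medians of 1.92 in DMM and 1.36 in naive mice. Kif20a (ENSMUSG00000003779), a motor of the central spindle, was at 81.4, 46.2, 48.5, 44.3 and 111 CPM with AP20187 and 3.68, 5.74, 10.7, 10.1 and 21.5 CPM with vehicle in DMM. Naive mice had Kif20a at 60.4, 50.6, 20.3 and 18.1 CPM with AP20187 and 7.44, 5.74, 8.13, 13.4 and 3.13 CPM with vehicle. It had the largest folds of its role group, 6.40-fold and 4.94-fold (adjusted p = 0.0015 and 0.00772). Racgap1 (ENSMUSG00000023015, chromosome 15, 99518377 to 99549537, minus strand), which with KIF23 forms centralspindlin, was at 71.9, 48.9, 51.4, 52.4 and 105 CPM with AP20187 and 8.20, 12.7, 21.2, 26.4 and 40.5 CPM with vehicle in DMM. Its values in naive mice were 53.6, 47.5, 26.9 and 27.1 CPM with AP20187 and 14.9, 18.7, 15.3, 20.7 and 14.5 CPM with vehicle. The groups did not overlap, with folds of 3.03 and 2.30 (adjusted p = 0.00436 and 0.0384). Prc1 (ENSMUSG00000038943, chromosome 7, 79944198 to 79966007, plus strand), the cross-linker of antiparallel microtubules, was in DMM at 95.5, 64.4, 62.5, 53.0 and 116 CPM with AP20187 and 5.52, 11.6, 19.4, 25.0 and 36.7 CPM with vehicle. Naive Prc1 was at 64.2, 59.0, 28.0 and 24.9 CPM with AP20187 and 14.0, 10.8, 17.4, 24.2 and 11.1 CPM with vehicle. Naive AP20187 mouse 5 and vehicle mouse 4 nearly met without overlap, and the folds were 3.99 and 2.84 (adjusted p = 0.0036 and 0.0313). Against DMM vehicle mice 63 and 64 alone, the log2 fold changes were 2.06 for Kif20a (adjusted p = 0.0645), 0.98 for Racgap1 (0.114) and 1.35 for Prc1 (0.0882), and against mice 32 to 34 alone 3.30, 2.23 and 2.68 (adjusted p up to 0.00067). With 1 naive mouse left out, the naive call was lost for Racgap1 without AP20187 mouse 1 or 3 or vehicle mouse 1, 2, 3 or 5 (adjusted p from 0.0661 to 0.133) and Prc1 without AP20187 mouse 1 or 3 or vehicle mouse 1, 2 or 5 (adjusted p from 0.0657 to 0.111), and the call held for Kif20a.

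Anln (ENSMUSG00000036777, chromosome 9, 22243308 to 22300484, minus strand), anillin, the scaffold of the contractile ring, was at 71.1, 49.2, 51.0, 44.0 and 89.8 CPM with AP20187 and 15.01, 14.0, 21.3, 25.7 and 40.01 CPM with vehicle in DMM. In naive mice it was at 56.6, 49.8, 32.7 and 31.2 CPM with AP20187 and 18.2, 15.6, 24.4, 22.9 and 12.4 CPM with vehicle. Anln had the smallest called difference in naive mice, 2.28-fold (log2 fold change 1.19 ± 0.30 (SE), adjusted p = 0.0192), and in DMM it was 2.63-fold (log2 fold change 1.39 ± 0.29 (SE), adjusted p = 0.00361). Kif23 and Ect2, the exchange factor that activates RhoA at the furrow, were called in both, at 3.60-fold and 5.27-fold in DMM. With only vehicle mice 63 and 64 as DMM controls, the log2 fold changes were 0.90 for Anln (adjusted p = 0.142), 1.47 for Kif23 (0.056) and 1.74 for Ect2 (0.12), and against mice 32 to 34 alone 1.86, 2.16 and 3.09 (adjusted p up to 0.00167). When single naive mice were left out, the naive call was lost for Anln without AP20187 mouse 1 or 3 or vehicle mouse 2 (adjusted p from 0.0527 to 0.0756), Kif23 without AP20187 mouse 1 or 3 or vehicle mouse 1, 2 or 5 (adjusted p from 0.0575 to 0.129) and Ect2 without AP20187 mouse 1 or 3 or vehicle mouse 1, 2, 3 or 5 (adjusted p from 0.0631 to 0.148).

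**Figure D3:**
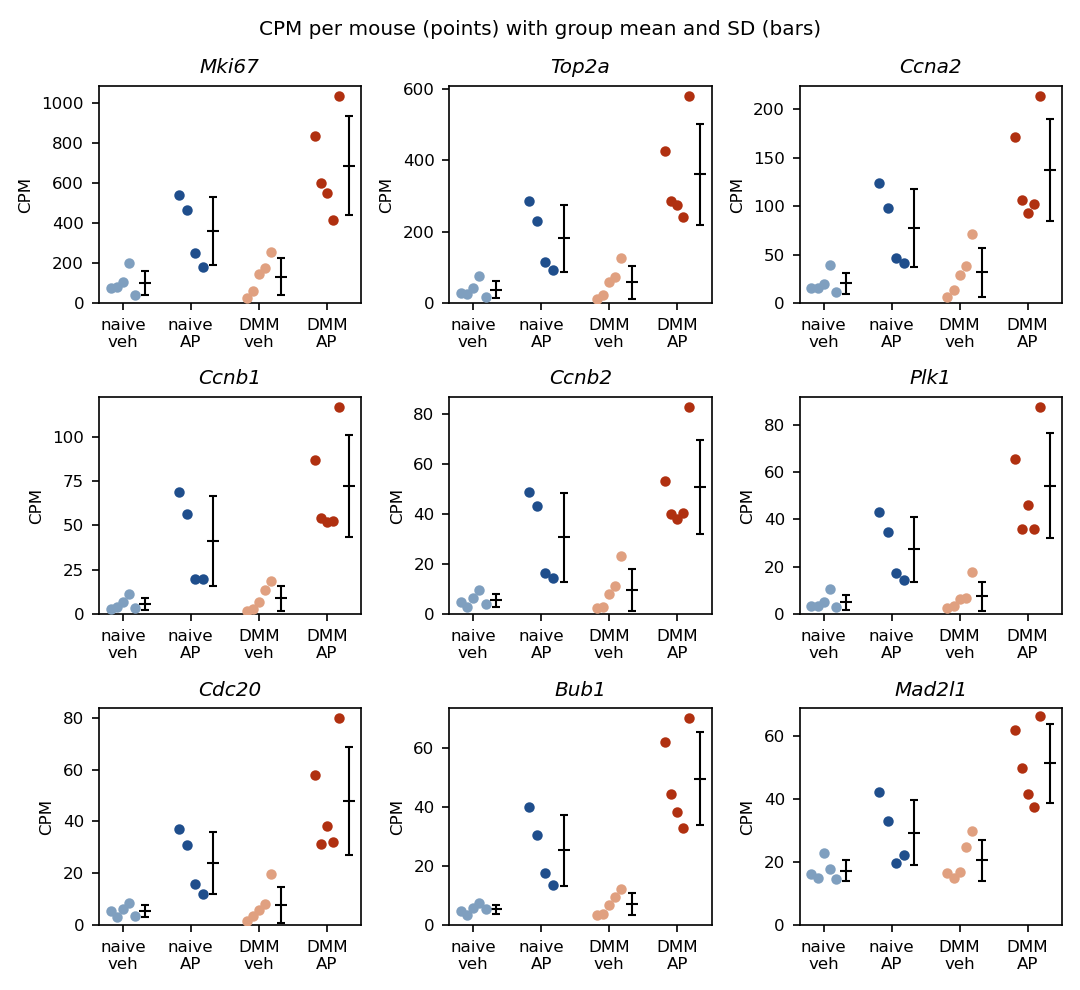
CPM of 9 members in each mouse (points), by group, with the group mean and SD (bars; n = 5, except 4 in naive mice with AP20187); vertical axes start at 0. In DMM the treated mice lie above all vehicle mice in each panel, and the 4 naive treated mice split into mice 1 and 3 with higher and mice 4 and 5 with lower values.

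Surgery alone gave no call among the members. With vehicle, 0 of 40 differed between DMM and naive mice by the edgeR test, as did 0% of all genes, and 0 members had an unadjusted p under 0.05 or were called by DESeq2. The 40 estimates were positive, with a median log2 fold change of 0.53, from 0.21 for Kif23 to 1.00 for Spc25, and every adjusted p was 1. The sign of these estimates rested on the DMM vehicle mice used: with mice 63 and 64 alone, 2 members were higher in DMM, Cdk1 (log2 fold change 1.76) and Spc25 (1.92), each at an adjusted p of 0.0489, in a fit that called 555 genes in all (2.27%), and with mice 32 to 34 alone the median was -0.26. Without mouse 64 the median was 0.0256.

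Among mice given AP20187, 0 of 40 members were called between DMM and naive by the edgeR test, where 0.676% of all genes were. Unadjusted, 8 members had p under 0.05, as did 3784 of the 22778 tested genes, and DESeq2 called 1, Mad2l1 (log2 fold change 0.83, adjusted p = 0.0428), beside 4.87% of all genes. The median log2 fold change was 0.83, from 0.49 for Cdca3 to 1.18 for Cenpa, and the smallest edgeR adjusted p was 0.138, for Mad2l1. On log2(FPKM + 1) with limma 5 were called (Bub1, Cenpf, Kif23, Mad2l1 and Ttk), with adjusted p from 0.0228 to 0.0474, beside 5.30% of all genes. On log2(FPKM + 0.1) Mad2l1 alone was called, beside 4.22% of all genes.

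The drug effect was not shown to differ between DMM and naive mice. The interaction, the log2 effect in DMM minus that in naive mice, was called in 0 of 40 members by edgeR, beside 0.110% of all genes. No member had an unadjusted p under 0.05, DESeq2 called 0, and the smallest adjusted p was 0.794. Its median was 0.35 and 34 of 40 estimates were positive, from -0.35 for Spc25 (95% interval -1.92 to 1.23) to 0.74 for Cenpf (-0.81 to 2.30). With DMM vehicle mice 63 and 64 alone the median was -0.42.

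**Figure D4:**
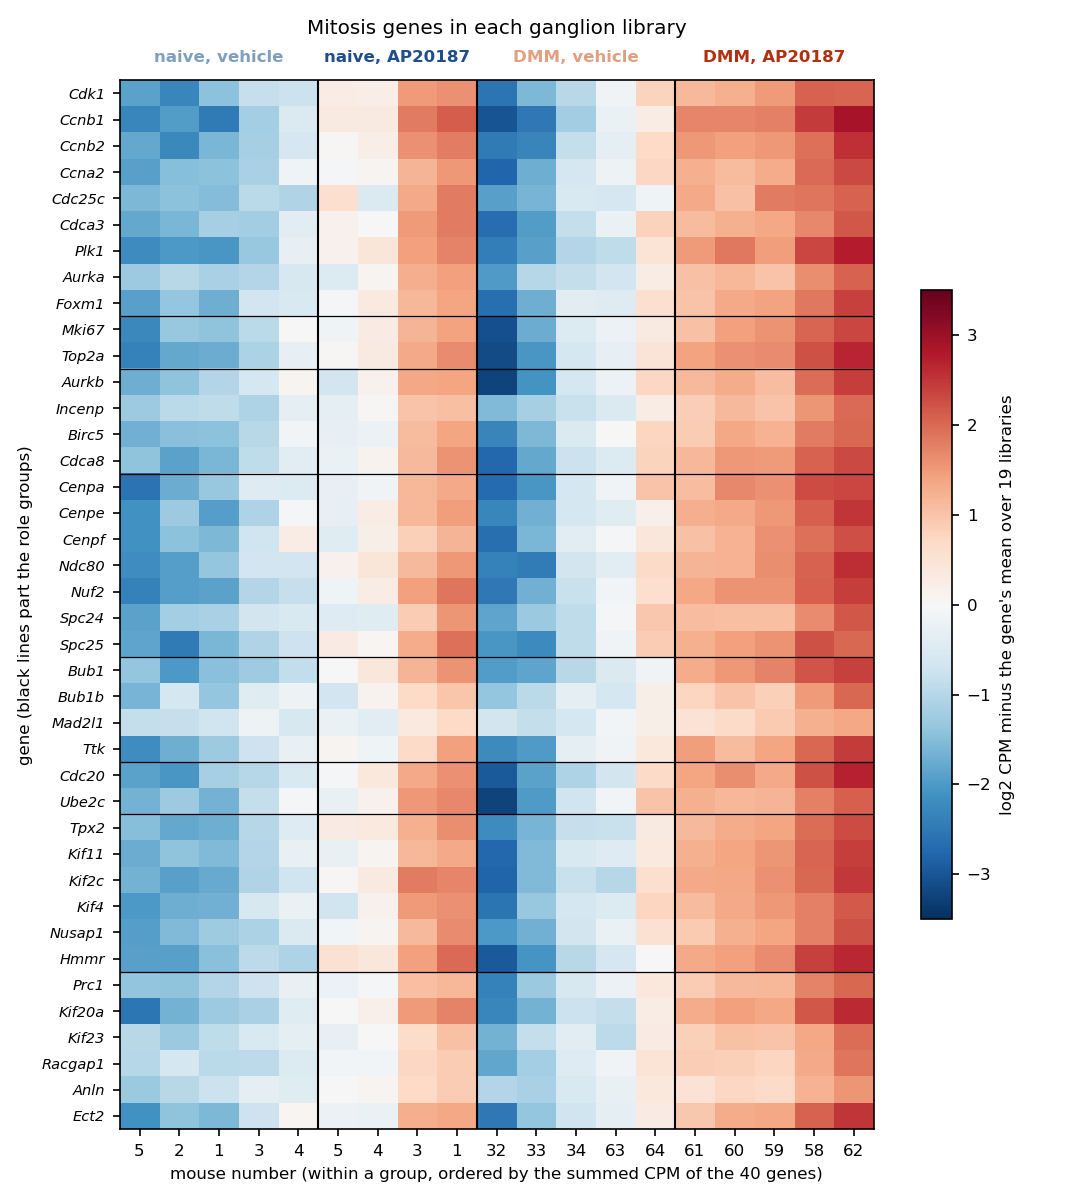
Log2 CPM of each member in each library, centred on the gene's mean over the 19 libraries; rows are genes by role group, columns are mice ordered within a group by the summed CPM of the 40. Among DMM mice, treated mouse 62 was highest in 38 genes and vehicle mouse 32 lowest in 36.

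The 40 genes moved together from mouse to mouse. As a description over the 19 libraries, which include the group differences, the first principal component of their log2 CPM held 97.4% of the variance and Pearson's r between members ran from 0.884 to 0.996 over 780 pairs, with a median of 0.974. Mad2l1, Bub1b and Cdc25c had the lowest mean r with the others, 0.929, 0.947 and 0.948. Within groups the highest mouse was mostly the same from member to member, and the lowest mouse varied more. DMM mouse 62 was the highest treated mouse in 38 members and mouse 58 in the other 2. The lowest treated DMM mouse was mouse 61 in 28 members, mouse 60 in 7 and mouse 59 in 5. Vehicle mouse 64 was the highest DMM control in all 40, and mouse 32 the lowest in 36. In naive mice, AP20187 mouse 1 was highest in 39, mouse 5 lowest in 30 and mouse 4 lowest in the other 10. Vehicle mouse 4 was the highest naive control in 35 and mouse 3 in the other 5, and the lowest was mouse 5 in 29, mouse 2 in 10 and mouse 1 in 1.

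Summed over the 40 genes, DMM mice 58 to 62 with AP20187 had 3749, 2575, 2442, 2104 and 4832 CPM. Vehicle mice 32, 33, 34, 63 and 64 had 193.8, 323, 640.2, 783 and 1326 CPM. The naive AP20187 mice 1, 3, 4 and 5 had 2670.0, 2214, 1096 and 907 CPM, and the naive vehicle mice 1 to 5 had 376, 368, 528, 809 and 279 CPM. The drug groups did not overlap with their own controls on this sum, but DMM vehicle mouse 64 stood above naive AP20187 mice 4 and 5. It exceeded mouse 4 in 35 members and mouse 5 in 36.

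Other genes of the cell cycle were read on lists chosen as the members were, with earlier results known. Of 43 further mitotic genes, 41 were higher in DMM (median 2.12) and 33 in naive mice (1.84). Smc4, a condensin subunit and the most abundant by FPKM, had log2 fold changes of 1.65 ± 0.24 (SE) and 0.90 ± 0.25. Those not called in DMM were H2ax (0.94) and the securin gene Pttg1 (-0.35). All 18 DNA replication genes were higher in DMM (median 1.52) and 11 in naive mice (1.34): the replication clamp Pcna had 0.88 ± 0.27 in DMM and 0.64 ± 0.29 in naive mice, where it was not called, and the ribonucleotide reductase subunit Rrm2 had 2.26 ± 0.56 and 1.85 ± 0.57.

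The regulators were less uniform. Beside these and the marker counts below, 11.3% of all tested genes were higher and 12.3% lower in DMM. In naive mice the shares were 8.50% and 2.48%. Of 22 genes of cell cycle transcription control, 13 were higher and 2 lower in DMM, and 4 were higher and 1 lower in naive mice. Tfdp1, a dimer partner of E2F factors, was higher in both (1.59 ± 0.30 and 1.37 ± 0.31 on the log2 scale), and its relative Tfdp2 lower in both (-1.17 and -1.01). Of the factors tied to CCAAT and CHR elements, Mybl2 (B-MYB, 1.97), Lin9 (1.34), Lin54 (0.86), Nfya (0.73), Nfyb (0.66) and Nfyc (0.64) were higher in DMM, and of these Lin9 (1.04) also passed in naive mice. Of the 22 estimates, 16 were positive in DMM. Values of other listed factors, Lin37, Lin52, E2f4, E2f5, Rbl1 and Rbl2 among them, are not given here. The 16 core subunits of the anaphase-promoting complex, whose partners Cdc20 and Ube2c rose, had 0 called in DMM by edgeR, with a median of 0.0845 and a smallest adjusted p of 0.0512 (unadjusted, 1 was higher and 2 lower, and DESeq2 called 1 higher), and in naive mice 1 higher (Anapc13, 1.74) and 1 lower (Anapc7, -0.45). Cohesin had 8 of 9 higher in DMM (median 0.75) and 2 in naive mice. Of 8 G1 cyclins and kinases 4 and 3 were higher, Ccnd3, Cdk2 and Cdk6 in both, while Ccnd1 had 0.08 ± 0.28 and 0.49 ± 0.30. The other gene higher in DMM, Ccne2, is also on the replication list and is counted in both lists. Of 7 CDK inhibitors 1 was higher in DMM, Cdkn2d (0.59 ± 0.17), and 0 in naive mice by edgeR (2 at an unadjusted p under 0.05, 0 by DESeq2). Both edgeR counts are near the shares of all tested genes.

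Many of these list counts also depended on the mice used. Of all genes, 2.76% were higher against DMM vehicle mice 63 and 64 alone and 17.5% against mice 32 to 34 alone. Against DMM vehicle mice 63 and 64 alone, 10 of the 43 further mitotic genes, 1 of the 18 replication genes, 3 of the cohesin genes, 1 G1 gene, 1 transcription control gene, 2 core subunits of the anaphase-promoting complex and 0 CDK inhibitors were higher. Against mice 32 to 34 alone the counts were 42 further mitotic genes, 18 replication genes, 8 cohesin genes, 5 G1 genes, 13 transcription control genes, 3 core subunits and 5 CDK inhibitors. The DMM count of CDK inhibitors was 0 without treated mouse 62 or vehicle mouse 33 or 34, 2 without treated mouse 61 and 3 without vehicle mouse 64. In naive mice, the further mitotic genes came to 12 without AP20187 mouse 1, 13 without vehicle mouse 2, 16 without AP20187 mouse 3 and 17 without vehicle mouse 1. The replication genes came to 1 and 2 without AP20187 mouse 1 and mouse 3, to 3 without vehicle mouse 1 or 2 and to 4 without vehicle mouse 5. Transcription control came to 1 and cohesin to 0 without any 1 of AP20187 mice 1 and 3 and vehicle mice 1, 2 and 5, and to 7 without vehicle mouse 4 and 4 without AP20187 mouse 5, respectively. Without vehicle mouse 3 they came to 2 and 1. The G1 genes came to 0 without AP20187 mouse 1 or 3 and to 1 without vehicle mouse 1 or 2.

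Markers of granulocyte precursors moved with the members. All 8 granulocyte precursor markers (Mpo, Elane, Prtn3, Ctsg, Ms4a3, Gfi1, Cebpe and Fcnb, made before the last divisions of neutrophils) were higher in both comparisons, with medians of 3.35 and 3.28 on the log2 scale and no overlap of groups. Summed, they ran from 1375 to 2917 CPM in treated DMM mice, 33.5 to 489 CPM in DMM vehicle mice, 377 to 1858 CPM in treated naive mice and 53.5 to 138 CPM in naive vehicle mice. Their highest and lowest DMM controls were mice 64 and 32, as for the members. Against mice 63 and 64 alone 5 of the 8 were higher. None of the 8 was at 0 in a group. Their part in the difference of the mitosis genes was not tested.

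Of the other lists, neutrophil markers had 4 of 8 higher in DMM and 5 of 8 in naive mice, and monocyte markers 4 and 3 of 6 higher with Ccr2 lower in both (-2.59 and -2.05). Against DMM vehicle mice 63 and 64 alone 1 neutrophil and 1 monocyte marker were higher, and against mice 32 to 34 alone 7 and 5. The DMM monocyte count was 2 without treated mouse 58 or vehicle mouse 33. No erythroid precursor marker was called higher by edgeR or DESeq2, or had an unadjusted p under 0.05 in that direction. Their sum was 877 to 3607 CPM in treated and 1056 to 17790 CPM in vehicle DMM mice, with Hba-a1 and Hbb-bs lower, and it was highest in vehicle mouse 64 and, among naive mice, in vehicle mouse 4, the control mice highest for the members. Of the early B lineage markers 6 of 8 were lower in DMM and 5 of 8 in naive mice, where 2 were at 0 in every treated mouse, with sums of 41.5 to 114 CPM in treated and 122 to 191 CPM in vehicle DMM mice. Sensory neuron markers had 5 of 8 lower in DMM and 0 in naive mice by edgeR (3 at an unadjusted p under 0.05). Skeletal muscle markers, 4 of 8 higher in naive mice (0 without any 1 of AP20187 mice 1 and 3 and vehicle mice 1, 2, 4 and 5) and 2 lower in DMM, summed to 1726 to 2679 CPM in treated naive mice and 14.8 to 475 CPM in naive vehicle mice. Among the cells of the ganglion and its vessels, 2 of 5 endothelial markers were higher in DMM, Pecam1 (1.36) and Tek (1.12), and 1 in naive mice, Tek (1.29), with all 5 estimates positive in both comparisons and 2 and 5 at an unadjusted p under 0.05. Their sums were 127.4 to 231.2 CPM in treated and 57.66 to 121.3 CPM in vehicle DMM mice, and 171.5 to 383 CPM in treated and 53.68 to 271.9 CPM in vehicle naive mice. The endothelial count in DMM was 0 against vehicle mice 63 and 64 alone, 1 against mice 32 to 34 alone, 1 without treated mouse 59 or 61, and 0 without treated mouse 58 or 62 or vehicle mouse 32, 33, 34 or 63. In naive mice it was 5 without vehicle mouse 4, 2 without AP20187 mouse 5, and 0 without any 1 of the other 7. Of 5 myelinating Schwann cell markers 1 was lower in DMM, Pmp22 (-0.83), and 0 were called in naive mice by edgeR or at an unadjusted p under 0.05. Of 6 satellite glia markers Ednrb was lower in both (-1.24 and -0.91). No fibroblast marker was called by edgeR in either comparison or had an unadjusted p under 0.05, and 2 were higher against DMM vehicle mice 32 to 34 alone. T and NK cell markers summed to 3.17 to 19.4 CPM in all 19 libraries. The part of these cells in the members' difference was not tested.

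Counts of markers called lower also depended on the mice used. In DMM, against vehicle mice 63 and 64 alone, 0 sensory neuron, 0 Schwann cell and 0 skeletal muscle markers and 5 erythroid markers were lower, and against mice 32 to 34 alone 1 Schwann cell, 7 muscle and 0 erythroid markers. With 1 DMM mouse left out the counts were 0 to 5 for Schwann cells, the 5 without treated mouse 61 and the 0 without treated mouse 58 or 62 or vehicle mouse 32. For skeletal muscle they were 5, 6 and 7 without vehicle mice 33, 34 and 64 and 0 without vehicle mouse 32 or any treated mouse but 62. Erythroid markers gave 5 without vehicle mouse 32, 4 without treated mouse 58 or vehicle mouse 33, and 0 without treated mouse 59, 60 or 62 or vehicle mouse 64. Sensory neurons gave 3 without treated mouse 60 or vehicle mouse 33. In naive mice the lower call of Ccr2 was lost without any 1 mouse other than vehicle mouse 5, and that of Ednrb without AP20187 mouse 3.

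**Figure D5:**
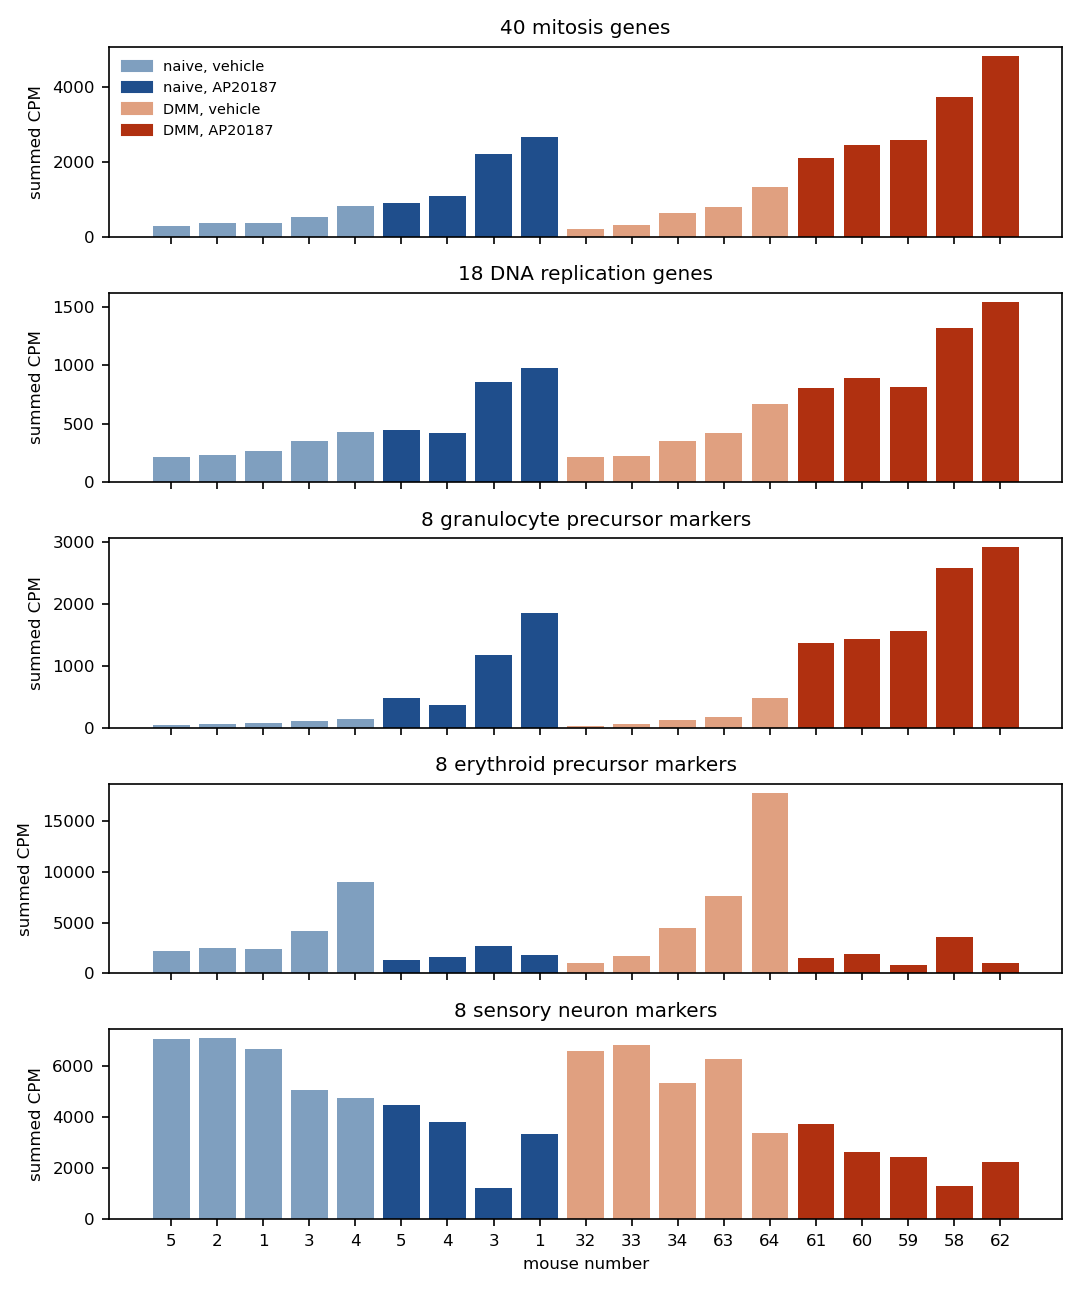
Summed CPM per mouse of the 40 mitosis genes, 18 DNA replication genes and the markers of granulocyte precursors, erythroid precursors and sensory neurons; bars start at 0, colours give the group, and mice are ordered within a group by the top panel. The granulocyte precursor sums follow the mitosis genes, with 489 CPM in vehicle mouse 64 against 1375 CPM in the lowest treated DMM mouse, while the erythroid sum peaks at 17790 CPM in that vehicle mouse.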

How the data were processed

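RNA of pooled L3 to L5 ganglia was measured by stranded poly(A) sequencing, per the labels' protocols. Counts, as deposited, are whole numbers for each gene. The FPKM values, a scale adjusted for gene length and library depth, were used as deposited. The divisor behind them in each library was not recomputed here. The submitters' processing notes name cutadapt, HISAT2, StringTie and GRCm39, with no versions; how counts were assigned to genes is not given in the sources used here. All columns were matched to samples by the labels.

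Counts were fitted with edgeR 4.0.16 in R 4.3.3: TMM, filterByExpr (minimum count 10; 22778 genes kept), 1 model of the 4 groups over 19 libraries (15 residual degrees of freedom), robust quasi-likelihood F test, two-sided. P-values were adjusted by the Benjamini-Hochberg method within each contrast (22778 genes), with a threshold of 0.05. CPM use TMM-scaled library sizes. DESeq2 1.42.0 and limma 3.58.1 on log2(FPKM + 1) and log2(FPKM + 0.1) were alternatives, with scaling, filters, samples left out and a replicate block. Library totals of 60984830 to 74691396 counts limit counting error; the spread between mice sets the precision. Nothing in the labels says more of the mice than their numbers, so p-values measure the spread between these libraries.

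Values in every library are given for the 2 members of each role group with the highest mean FPKM (3 in groups of 6 or more) and for the called members with the largest and smallest fold in each contrast with calls. From other lists, up to 3 genes of the highest mean FPKM were to be named; further genes were named after their values were seen. The members and lists were chosen with earlier results of these data known. Promoter sequences are from RefSeq. 1 marker each of the sensory neuron and Schwann cell lists is not reported here and was left out of those lists' sums and counts.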

Additional observations from a re-analysis of the deposited data

How the results depend on the processing

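The count of members called in DMM was 40 under library size alone, no filter, DESeq2 and both FPKM scales, 39 with the groups compared alone, 39 to 40 with 1 mouse left out, 40 with vehicle mice 32 to 34 alone and 4 with mice 63 and 64 alone, a comparison with fewer samples. In naive mice it was 27 to 40 under those settings other than left-out mice, and 14 to 40 with 1 mouse left out. Shares of all genes called are not given here for most of these settings. DESeq2 called more genes than edgeR for DMM against naive with AP20187, 4.87% against 0.676% of all genes. The 40 members it called in naive mice were not set against its own share. Naive mice share label numbers 1, 3, 4 and 5 across treatments, but the labels tie nothing to a number and the deviations of same-numbered mice had r of 0.00781, 0.254, -0.0532 and 0.223, not all over 0.1, so the numbers were not taken as pairs. With the replicate block 27 members were called in naive mice, and mice 3 and 5 correlated best with their own number while mice 1 and 4 did not. DMM against naive with vehicle gave 2 members with mice 63 and 64 alone. DMM against naive with AP20187 gave 1 with DESeq2, 5 on log2(FPKM + 1) and 1 on log2(FPKM + 0.1). The causes of these changes were not tested. The median log2 fold change moved to 3.15 in DMM with mice 32 to 34 alone and to 1.13 in naive mice on log2(FPKM + 1), a scale that shrinks low genes. Signs turned in contrasts without a call. With mice 32 to 34 alone, DMM against naive with vehicle had a median of -0.26, with Mki67 at -0.39 and Top2a at -0.31. With mice 63 and 64 alone the interaction had a median of -0.423, with Mki67 at -0.18 and Top2a at -0.45, and the Top2a interaction ran from -0.0304 (without naive vehicle mouse 4) to 0.87 with 1 mouse left out. The quasi-likelihood test without its robust option, chosen after seeing the data, changed no call in the drug comparisons. The interaction could not be fitted on only the groups compared, since it uses all 4. Of the other lists in naive mice, and with all mice kept, the settings gave 23 to 38 further mitotic genes, 2 to 13 replication genes, 1 to 8 transcription control genes, 0 to 2 cohesin genes and 2 to 5 G1 genes called higher. Resident macrophage markers called higher were 0 to 4 in DMM and 1 to 6 in naive mice, and skeletal muscle markers 2 to 8 in naive mice. Markers called lower in DMM, with all mice kept, were 0 to 6 for skeletal muscle, 0 to 5 for erythroid precursors (the 6 and the 5 with DESeq2), 0 to 1 for Schwann cells and 5 to 6 for sensory neurons, which had 0 to 3 in naive mice.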
